A study of Homo sapiens with 12 samples.

Results

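The genes described here lie on the long arm of human chromosome 17, from BLMH, which lies just before CPD (chr17:30378927-30469989, GRCh38.p14), to TBCD near the chromosome's end (chr17:82752065-82945914). They are the 351 genes of that stretch with a mean of at least 5 CPM, counts scaled to the library total, in either group, out of 1395 genes of the stretch and 49651 genes with counts in the table. A further 54 genes at that level were left out by symbol, as families or single genes that are not treated here. The cells were D283, an established human medulloblastoma line. One group carried a scrambled control, and the other carried genetic inactivation of ABL1 and ABL2, the genes of 2 related tyrosine kinases. The sources used here do not give the agent or method of inactivation. Each group had 3 RNA sequencing libraries, and the labels do not say whether these came from separate cultures, so the spread between them may be technical.

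The stretch itself was found in this comparison, as a run of genes higher in the inactivated cells. Its position was therefore chosen on the values reported below, and the levels and fold changes of its genes are a description, with no test. As background, the long arm of chromosome 17 is rich in genes. It holds the HOXB homeobox cluster, the type I keratin cluster, STAT3 and other STAT genes, and ERBB2, along with many genes for splicing, transport and mitosis that most cells use. Gain of this arm, often as an isochromosome, is a frequent chromosome change in medulloblastoma. DNA was not measured in the data used here, so copy number was not tested. In bulk RNA, a higher level per cell and more cells carrying that level cannot be told apart.

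Of the 351 genes, 334 are protein-coding in RefSeq, 13 are long noncoding RNAs, 3 are transcribed pseudogenes and 1 is a microRNA gene. RefSeq promoters (GRCh38.p14) were matched for 270 of them, and those of the 2 highest and 2 lowest genes with an entry are shown, because these genes stand farthest from the rest of the stretch. Each sequence is the 250 bases before the gene's start, 5′ to 3′ on the gene's strand. Capitals mark TATAAA, the TATA box core, CCAAT, the CCAAT box, and GGGCGG, the GC box, each on either strand. They come from GIP on the minus strand (chr17:48968597-48968846), GDPD1 on the plus strand (chr17:59220261-59220510), MEIOC on the plus strand (chr17:44656218-44656467) and PITPNC1 on the plus strand (chr17:67377031-67377280).
GIP: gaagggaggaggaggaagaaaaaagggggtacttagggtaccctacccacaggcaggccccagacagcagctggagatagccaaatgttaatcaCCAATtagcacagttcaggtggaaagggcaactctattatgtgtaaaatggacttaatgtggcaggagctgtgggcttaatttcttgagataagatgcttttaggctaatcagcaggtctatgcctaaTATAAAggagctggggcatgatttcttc
GDPD1: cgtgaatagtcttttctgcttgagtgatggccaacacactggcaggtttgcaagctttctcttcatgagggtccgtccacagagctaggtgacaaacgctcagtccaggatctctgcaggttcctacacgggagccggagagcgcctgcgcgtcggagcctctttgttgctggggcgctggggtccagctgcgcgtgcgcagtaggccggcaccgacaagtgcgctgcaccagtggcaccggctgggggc
MEIOC: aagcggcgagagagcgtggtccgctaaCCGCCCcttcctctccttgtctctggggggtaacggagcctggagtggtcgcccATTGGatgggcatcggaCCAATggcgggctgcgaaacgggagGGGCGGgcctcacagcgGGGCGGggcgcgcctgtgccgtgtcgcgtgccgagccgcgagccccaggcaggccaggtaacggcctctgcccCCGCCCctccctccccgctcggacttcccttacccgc
PITPNC1: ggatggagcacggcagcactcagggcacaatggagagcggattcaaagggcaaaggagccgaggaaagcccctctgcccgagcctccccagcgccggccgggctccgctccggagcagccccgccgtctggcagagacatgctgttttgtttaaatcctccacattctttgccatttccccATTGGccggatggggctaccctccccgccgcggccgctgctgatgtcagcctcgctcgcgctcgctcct
The GIP window holds a TATAAA that begins 28 bases before the start, a CCAAT and no CG dinucleotide, at a GC content of 46%. The MEIOC window has a GC content of 72%, 27 CG dinucleotides, 4 GGGCGG and 2 CCAAT. The GDPD1 window holds none of the 3 motifs, and the PITPNC1 window holds 1 CCAAT. Over the 270 genes, 4.81% of the windows held TATAAA, 40.7% held CCAAT and 69.6% held GGGCGG. Among the 8254 genes of all chromosomes in the table at 5 CPM or more with an entry, the shares were 4.60%, 36.3% and 69.1%. The median GC content was 65% in the 270 windows and 65.6% in the 8254. Among members, the median log2 fold change was 0.46 for the 188 genes with GGGCGG and 0.53 for the 82 without it, against an interquartile range of 0.40 over all members. A match is a run of letters and says nothing of whether a factor binds there.

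ABL1 mRNA stood at 157, 148 and 154 CPM in control and at 62.1, 62.3 and 61.1 CPM in inactivated libraries. It fell by 1.31 ± 0.043 (SE) on the log2 scale (edgeR quasi-likelihood test, Benjamini-Hochberg adjusted p = 5.4e-15). ABL2 stood at 144, 136 and 134 CPM in control and 97.6, 112 and 102 CPM in inactivated libraries, a fall by 0.41 ± 0.051 (adjusted p = 1.3e-06). Both genes were lower in every inactivated library than in any control library. Libraries held 33505903 to 49034159 counts. Of the defining markers of medulloblastoma lines, OTX2 had a mean of 829.8 CPM and MYC 481.5 CPM in control, BARHL1 had no read, and 6 of 8 markers reached 1 CPM. In inactivated cells OTX2 was lower, at 665.5 CPM, and MYC higher, at 525.9 CPM. IMPG2 (66.7 to 315.7 CPM), EYS and CRX were also higher there, and NEUROD1 (28.5 to 17.8 CPM) and EOMES were lower. All 5 immune markers stayed below 1 CPM in every library, with sums of 0.317 to 0.452 CPM in control and 0.175 to 0.524 CPM in inactivated libraries, and CD3E was at 0. The 6 fibroblast markers summed to 35.3 to 37.9 CPM in control and 19.5 to 21.3 CPM in inactivated libraries, most of it PDGFRB, and COL3A1 was at 0. The 5 endothelial markers summed to 4.06 to 4.52 CPM in control and 9.66 to 10.99 CPM in inactivated libraries, from KDR and VWF, with 3 of 5 at or below 0.1 CPM.

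Genes of the stretch were higher in the inactivated cells by a median log2 fold change of 0.49, which is 1.40-fold. The quartiles lay at 0.29 and 0.69, and the whole range ran from -3.24 for MEIOC to 3.95 for GIP. Together they took 2.739%, 2.739% and 2.742% of all counts in the control libraries and 3.740%, 3.725% and 3.732% in the inactivated libraries. Taken library by library, the median level over the control mean was 0.50, 0.47 and 0.51 on the log2 scale in inactivated libraries 1 to 3. In the control libraries it was between -0.017 and 0.021. The 3 inactivated libraries therefore differed from each other by far less than they differed from control. Over the 9732 genes outside the stretch at the same level the median log2 fold change was -0.031.

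**Figure D1:**
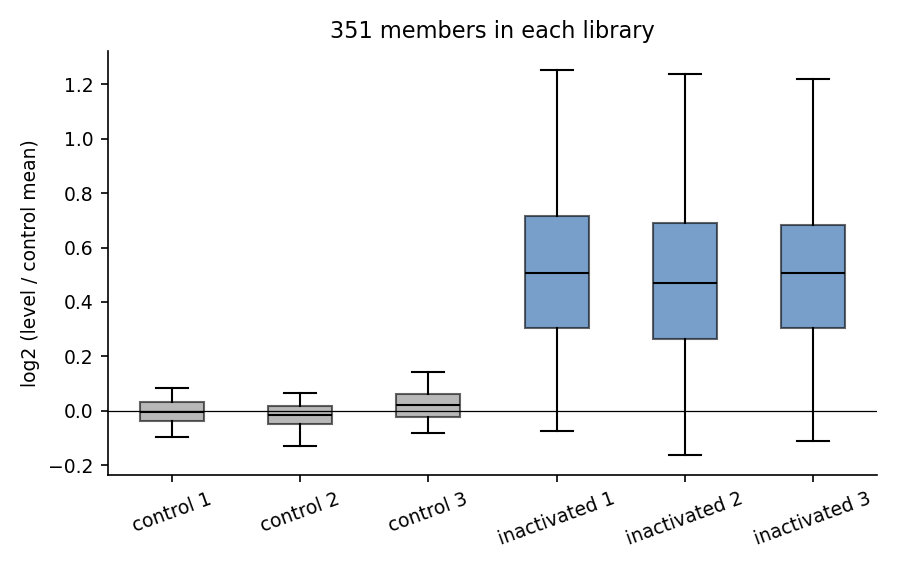
Log2 ratio of the level of each of the 351 genes to its mean over the control libraries (y axis), by library (x axis). Boxes span the quartiles, the inner line is the median and the whiskers reach from the 5th to the 95th percentile. The medians of the 3 inactivated libraries lie between 0.47 and 0.51, and those of the control libraries near 0.

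Of the 351 genes, 308 passed edgeR's threshold (adjusted p under 0.05) as higher, 17 as lower and 26 did not pass. Over all 14704 genes tested, 59.3% passed, 29.6% as higher and 29.7% as lower, and of the 9732 genes outside the stretch at 5 CPM or more 28.9% and 35.7%. The groups did not overlap in 308 genes with the inactivated libraries higher and in 17 with them lower, where all tested genes gave 31.4% and 31.9%. Since the stretch was chosen in this comparison, nothing is read from these counts. A change of at least 2-fold was seen in 29 genes upward and 5 downward, and 182 genes were 1.2 to 1.6 times as high as in control. Of the 9732 genes outside the stretch at 5 CPM or more, 234 were 2-fold or more higher and 417 were 2-fold or more lower. Over all genes tested, which include those under 5 CPM, the shares were 6.37% upward and 6.49% downward.

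The genes of the stretch spread around their own median about as widely as other genes spread around theirs. The interquartile range was 0.40 in the stretch and 0.41 over the 9732 genes outside it. Within 0.2 of the median lay 49.6% of the stretch's genes and 49.3% of the genes outside. Single genes were measured more closely than that, with a median SE of 0.054. The 95% interval of the log2 fold change held the median of 0.49 in 103 genes, lay above it in 123 and lay below it in 125.

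**Figure D2:**
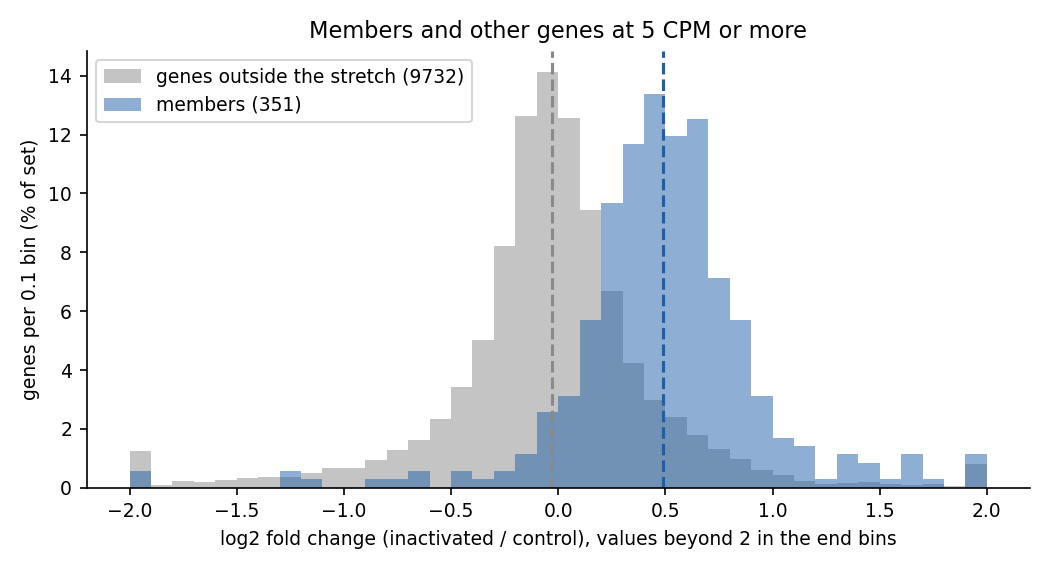
Share of genes (y axis, percent of each set per bin of 0.1) by log2 fold change (x axis) for the 351 genes of the stretch and the 9732 genes outside it at 5 CPM or more. Dashed lines mark the medians, 0.49 and -0.031, and the widths of the 2 distributions are alike (interquartile ranges 0.40 and 0.41).

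The shift was present along the whole stretch. In windows of 5 Mb from the start of BLMH, the median log2 fold change ran from 0.37 (24 genes, SNHG30 to WIPF2) to 0.58 (16 genes, XYLT2 to STXBP4). All 11 windows had a median above 0. The densest window, with 70 genes from RARA to HEXIM2, had a median of 0.50, and the last, with 43 genes from RNF213 to TBCD, had 0.52. Going along the chromosome, the longest run of members with a log2 fold change above 0, passing or not, held 55 genes, from TTYH2 to TIMP2. Of the 10 members nearest the chromosome's end, 9 passed as higher, against 29.6% of all genes tested, and the median was 0.57. OGFOD3 was the one that did not pass, at 24.3 and 24.5 CPM (0.0084).

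At the other end, the first position of the rule was set with these fold changes known, so the step there is a description. The 175 genes of chromosome 17 before the stretch at 5 CPM or more had a median log2 fold change of -0.0037, with 41 passing as higher and 56 as lower. The last 3 of them were ANKRD13B (0.21), SSH2, which codes for an actin-regulating phosphatase (0.0011), and NSRP1, a splicing regulator gene (-0.16). The first 3 genes inside were BLMH, for the cysteine protease bleomycin hydrolase (0.43), CPD, for carboxypeptidase D (0.51), and the Golgi SNARE gene GOSR1 (0.46). The last 20 genes before the boundary had a median of 0.0093 and the first 20 inside 0.53. Of the last 10 before it, 5 passed as higher and 3 as lower (median 0.084), and all of the first 10 inside passed as higher (median 0.56). Over all genes tested, 29.6% passed as higher and 29.7% as lower. NSRP1 stood at 90.4, 99.9 and 108 CPM in control and 86.5, 87.3 and 93.5 CPM in inactivated libraries. BLMH stood at 262, 262 and 252 CPM in control and 343, 339.8 and 361 CPM in inactivated libraries, without overlap.
The other edge of the rule is the level. The members nearest to it were KRT17, ARSG and ACBD4, at 5.04, 5.11 and 5.12 CPM in the higher group. Just under it stood ACTG1, PHOSPHO1 and LOC729683 at 4.88, 4.85 and 4.73 CPM. Their log2 fold changes ranged from -0.011 for LOC729683 to 2.09 for PHOSPHO1.

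**Figure D3:**
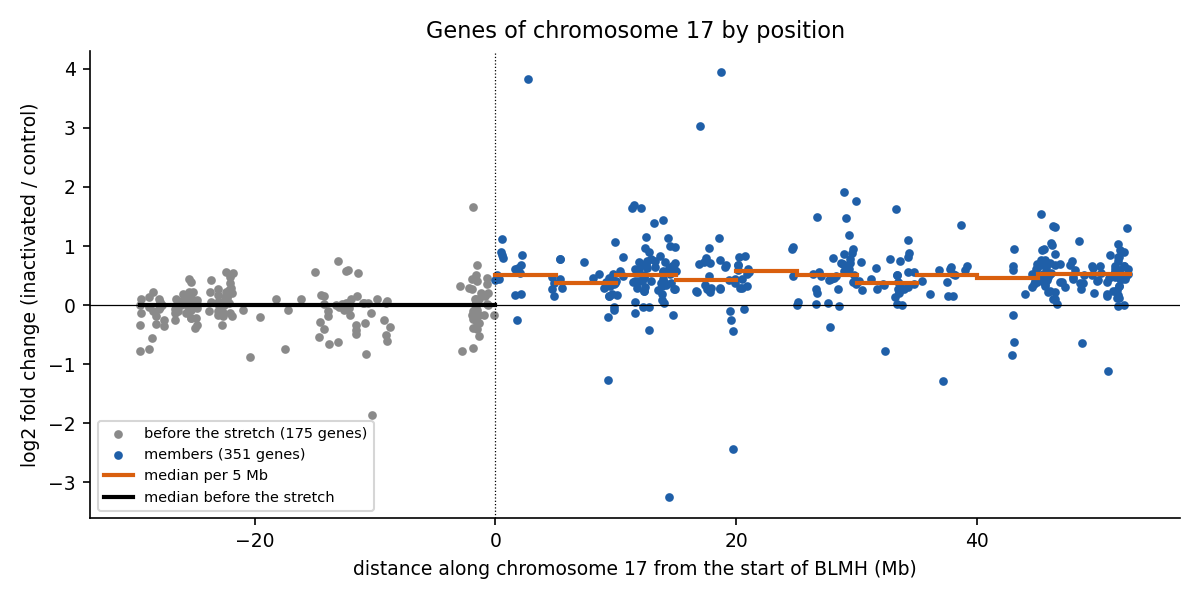
Log2 fold change (y axis) of genes of chromosome 17 at 5 CPM or more by distance from the start of BLMH in Mb (x axis), for 175 genes before the stretch and 351 genes in it. Horizontal bars are medians, -0.0037 before the stretch and 0.37 to 0.58 in the windows of 5 Mb after it.

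The median varied little with exon length or strand, and its values by level depend in part on the level threshold. From the lowest to the highest quartile of level, the medians were 0.61, 0.51, 0.45 and 0.44. The quartiles of exon length gave 0.51, 0.46, 0.52 and 0.45. Genes on the plus strand (172) had a median of 0.49, and those on the minus strand (179) had 0.49. Members that passed the level threshold in the inactivated group only numbered 29, and 3 passed it in the control group only, so these had to differ. Members under 5 CPM in control had to be higher, which can raise the median at low levels. No trend with level is therefore read from these quartiles. The lowest quartile of level was the widest, with an interquartile range of 0.69 against 0.25 in the highest. Per kilobase of exon, the most abundant genes in control were EIF1, the start-codon selection factor (196 CPM per kb), P4HB, protein disulfide isomerase (190.05 CPM per kb), and the importin gene KPNA2 (177 CPM per kb). Their log2 fold changes were 0.38, 0.12 and 0.65.

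GIP, the gene of an incretin hormone of the gut, had the highest fold change of the stretch. It stood at 0.619, 0.518 and 0.662 CPM in control libraries, against 9.51, 8.57 and 9.85 CPM in inactivated libraries. No control library came near the inactivated ones, and the mean ratio was 15.5, a log2 fold change of 3.95 ± 0.14 (SE). TMEM98, which codes for a membrane protein that binds the myelin regulatory factor MYRF, stood at 4.61, 4.78 and 4.27 CPM in control. In the inactivated libraries it stood at 67.4, 61.5 and 66.2 CPM. Every inactivated library was over 60 CPM and every control library under 5 CPM, with a log2 fold change of 3.83 ± 0.069. MYL4, the gene of an embryonic and atrial myosin light chain, went from 0.773 ± 0.0121 CPM (SD, n = 3) in control to 6.37 ± 0.537 CPM in inactivated cells. GIP, TMEM98 and MYL4 reached 5 CPM in the inactivated group only, so they had to be higher.

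STAT3, the transcription factor that cytokine receptors activate through JAK kinases, was the most abundant of the 12 highest genes. Its level was 71.1, 70.9 and 70.1 CPM in control and 218, 219 and 222 CPM in inactivated libraries. The libraries within each group lay within 5 CPM of each other, and the inactivated mean was 3.11 times the control mean, a log2 fold change of 1.64 ± 0.041. COIL, for coilin, the scaffold of Cajal bodies, stood at 25.9, 28.1 and 28.4 CPM in control and 77.3, 76.1 and 77.9 CPM in inactivated libraries. CA4, for a membrane-anchored carbonic anhydrase, had 20.1, 21.7 and 20.7 CPM in control and 70.1, 67.9 and 72.7 CPM in inactivated libraries. In both genes all inactivated libraries were above all control libraries, by log2 fold changes of 1.49 ± 0.049 and 1.75 ± 0.052. GDPD1, a glycerophosphodiesterase gene, was at 1.62 ± 0.0664 CPM in control and 6.13 ± 0.744 CPM in inactivated cells. ACE, for angiotensin-converting enzyme, was at 2.29 ± 0.1298 CPM and 7.03 ± 0.286 CPM. GDPD1 and ACE reached 5 CPM in the inactivated group only, so they had to be higher. YPEL2 was at 6.11 ± 0.299 CPM in control and 16.9 ± 0.401 CPM in inactivated cells, without overlap.

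MEIOC, a gene of meiotic germ cells, had the lowest fold change. It stood at 6.58, 7.17 and 6.98 CPM in control and 0.793, 0.826 and 0.526 CPM in inactivated libraries. All 3 inactivated libraries were under 1 CPM, and the log2 fold change was -3.24 ± 0.15. MEIOC reached 5 CPM in the control group only, so it had to be lower. DLX3, a homeobox gene of epidermis, placenta and bone, stood at 27.2, 26.7 and 28.4 CPM in control and 4.78, 4.798 and 5.61 CPM in inactivated libraries. The groups lay far apart, with a log2 fold change of -2.44 ± 0.076. Its neighbour in the genome, the paralogue DLX4, was lower by less, at 7.95 ± 0.756 CPM in control and 5.896 ± 0.293 CPM in inactivated cells (-0.43 ± 0.096). PITPNC1, a phosphatidylinositol transfer protein gene, stood at 68.5, 72.9 and 70.4 CPM in control and 28.8, 28.2 and 30.4 CPM in inactivated libraries. MRC2, which codes for an endocytic collagen receptor, had 90.1 ± 5.63 CPM in control and 52.9 ± 1.12 CPM in inactivated cells. LGALS3BP, the gene of a secreted glycoprotein that binds galectins, had 82.1 ± 4.99 and 52.8 ± 3.36 CPM. In each of these genes the groups did not overlap.

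**Figure D4:**
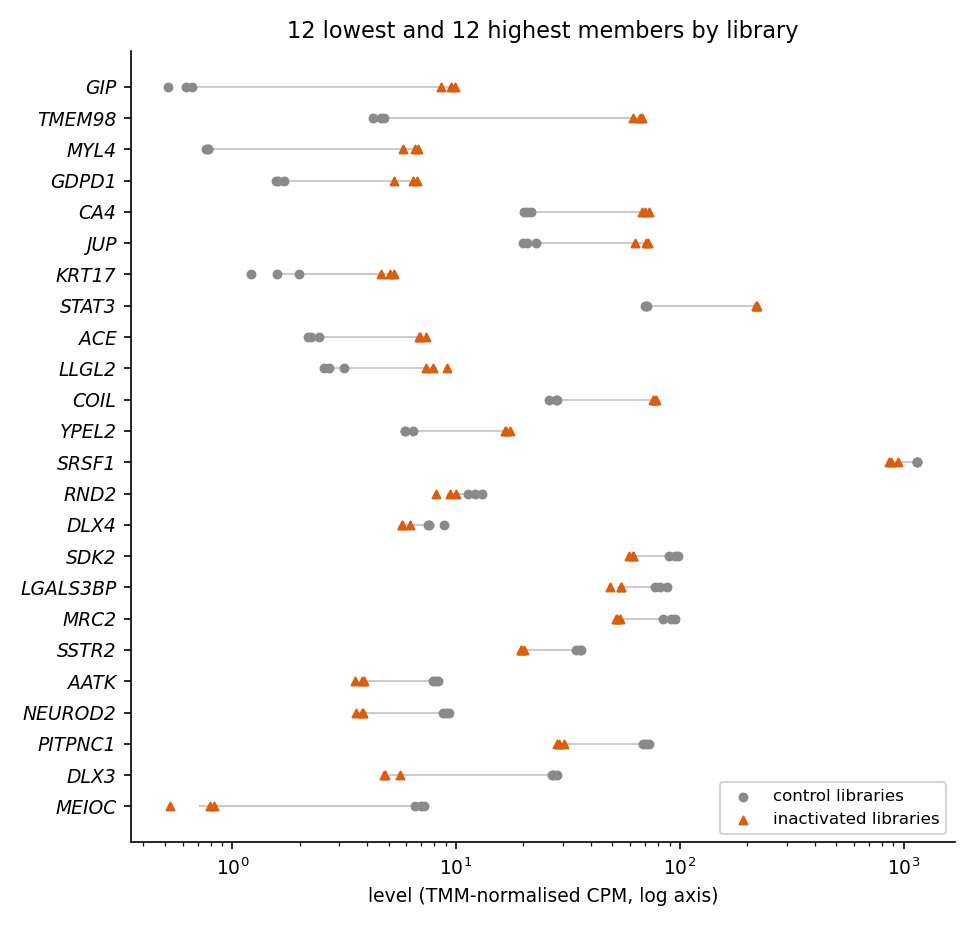
Level in each library (x axis, TMM-normalised CPM on a log axis) of the 12 genes of the stretch with the lowest and the 12 with the highest log2 fold change among those whose groups do not overlap. Circles are control and triangles inactivated libraries, and the grey line joins the group means. GIP at the top goes from 0.5999 to 9.31 CPM and MEIOC at the bottom from 6.91 to 0.715 CPM. Both reached 5 CPM in 1 group only and so had to differ.

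The genes were then read by function, in 16 lists that cover 202 of the 351 members. Of the 26 members for RNA processing and translation, 24 passed as higher and 1 as lower, with a median log2 fold change of 0.42 against 0.49 for the stretch. SRSF1, an SR protein gene that promotes splicing, was the exception. It stood at 1147, 1149 and 1151 CPM in control and 858, 939.8 and 874 CPM in inactivated libraries, so every inactivated library was lower (-0.37 ± 0.045). SRSF2, the other SR protein gene of the stretch, was among the 24, by a small margin, at 404 and 434 CPM (0.10 ± 0.043). It did not pass when control library 1 or 2 or inactivated library 1 or 3 was left out (0.078 to 0.12). DDX5, an RNA helicase gene, went from 647 ± 14.4 to 801 ± 15.6 CPM, and FTSJ3, for a nucleolar methyltransferase, from 145 ± 4.898 to 245 ± 5.47 CPM. MIR5047 and MIR3064 overlap DDX5 in the table, so reads on the microRNA gene MIR5047, a member itself, may belong to DDX5.

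Genes of DNA repair, replication and mitosis had a median of 0.66, with 19 of 20 passing as higher and none as lower. PRR11, a cell cycle gene, stood at 125, 131 and 129 CPM in control and 232, 233 and 238 CPM in inactivated libraries. Its groups lay about 100 CPM apart (0.87 ± 0.041). SKA2, for a kinetochore-microtubule protein, went from 149.8 ± 4.34 to 241 ± 4.43 CPM. CDC27, for a subunit of the anaphase-promoting complex, went from 175 ± 3.91 to 283 ± 7.45 CPM. RAD51D, a homologous recombination gene, was the one that did not pass, at 15.1 ± 0.0629 CPM and 16.8 ± 1.41 CPM (0.15 ± 0.07). It passed without inactivated library 3 (0.19).

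Chromatin and histone genes had a median of 0.51, with 16 of 17 passing as higher. H3-3B, one of the genes for the histone variant H3.3, stood at 445, 442 and 458 CPM in control and 597, 582 and 588 CPM in inactivated libraries, without overlap. CBX1, for a heterochromatin protein, was higher by 0.70 ± 0.044 and SIRT7, a nucleolar deacetylase gene, by 1.03 ± 0.082. KAT7, a histone acetyltransferase gene, was the one that was lower, from 199.9 ± 7.78 to 168 ± 3.31 CPM. All 8 members for Mediator and elongation passed as higher (median 0.42), from 0.27 for HEXIM2 to 0.71 for HEXIM1, both genes of inhibitors of the elongation kinase P-TEFb. HEXIM2 did not pass without control library 2 (0.22).

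Transcription factors were less uniform. Of 20 members, 13 passed as higher, 3 as lower and 4 did not pass, and the median was 0.21. Besides DLX3, DLX4 and STAT3, NEUROD2, a neuronal differentiation factor, stood at 9.34, 8.78 and 8.97 CPM in control and 3.55, 3.83 and 3.7998 CPM in inactivated libraries. Its control libraries were all above 8 CPM and its inactivated libraries all below 4 CPM (-1.27 ± 0.095). NEUROD2 reached 5 CPM in the control group only, so it had to be lower. UBTF, the RNA polymerase I factor, overlapped between the groups, at 341 ± 10.6 and 348 ± 7.66 CPM. FOXK2, a forkhead gene, was close to the stretch's median at 0.45 ± 0.043.

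Neural and glial genes were split, with 5 of 10 members passing as higher, 4 as lower and a median of -0.0031. SSTR2, a somatostatin receptor gene, stood at 35.9, 34.5 and 36.2 CPM in control and 20.1, 19.6 and 19.5 CPM in inactivated libraries, with no overlap (-0.85 ± 0.054). SDK2, a synaptic adhesion gene, went from 94.1 ± 4.45 to 60.98 ± 1.45 CPM and AATK, a kinase gene of neural tissue, from 8.07 ± 0.2001 to 3.75 ± 0.176 CPM. AATK reached 5 CPM in the control group only, so it had to be lower. CNP, the myelin enzyme gene, was higher at 0.39 ± 0.041, and CNTNAP1, for the axonal protein Caspr, at 0.70 ± 0.057. Outside the stretch, GJA1, a gap junction gene and astrocyte marker, stood at 309.4, 311.8 and 312.9 CPM in control and 118.3, 115.6 and 120.6 CPM in inactivated libraries. Its inactivated libraries were all lower. Of the other astrocyte and oligodendrocyte markers, AQP4 reached at most 0.161 CPM and MBP at most 0.0288 CPM in any library, and ALDH1L1, MOG and S100B were at 0. Their part in the values of the neural list was not tested.

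The 7 members among keratins, junction and surface genes all passed as higher, with a median of 1.54. However, 3 of them, KRT17, LLGL2 and TMEM98, reached 5 CPM in the inactivated group only and so had to be higher. The other 4, JUP, KRT10, CAVIN1 and ERBB2, had a median of 0.45, against 0.49 for the stretch. JUP, for plakoglobin, a catenin of desmosomes and adherens junctions, stood at 19.9, 20.8 and 22.7 CPM in control and 70.7, 63.2 and 72.2 CPM in inactivated libraries. Its inactivated libraries were about 3 times as high as its control libraries (1.70 ± 0.062). KRT17, a keratin gene, was low throughout, at 1.21, 1.58 and 1.99 CPM in control and 5.304, 4.64 and 5.09 CPM in inactivated libraries. LLGL2, a cell polarity gene, went from 2.81 ± 0.313 to 8.10003 ± 0.908 CPM. ERBB2, the receptor tyrosine kinase gene, was the least raised, from 174 ± 6.33 to 193 ± 4.92 CPM (0.15 ± 0.042). The 5 epithelial markers outside the stretch summed to 18.1 to 20.3 CPM in control and 234.8 to 274.8 CPM in inactivated libraries. KRT8 made up nearly all of that sum, while EPCAM and CDH1, which define epithelium, stayed at or below 0.1 CPM. KRT18 went from a mean of 0.280 CPM in control to 3.76 CPM in inactivated cells, and KRT5 from 0.421 to 0.0901 CPM. The part of these 5 markers in the values of the list was not tested.

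Membrane traffic genes had a median of 0.61, with 18 of 19 passing as higher and 1 as lower. AP2B1, an adaptor gene of clathrin-coated pits, stood at 338, 314 and 296 CPM in control and 533, 546 and 553 CPM in inactivated libraries, without overlap. VMP1, an autophagy gene, was higher by 0.78 ± 0.047, and STXBP4, a syntaxin-binding protein gene, by 0.99 ± 0.055. COG1, of the Golgi tethering complex, was lower, from 27.9 ± 0.805 to 24.8 ± 0.787 CPM, but did not pass without control library 1 (-0.15) or inactivated library 3 (-0.16). Of 15 adaptor, actin and GTPase regulator genes, 13 passed as higher and 1 as lower (median 0.52). LASP1, a focal adhesion protein gene, went from 508 ± 9.46 to 729 ± 24.7 CPM. RND2, a small GTPase gene of migrating neurons, was lower at -0.42 ± 0.088.

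Of 23 kinase and phosphatase genes, 19 passed as higher and 1, AATK, as lower (median 0.39). PRKAR1A, the regulatory subunit of protein kinase A, went from 251 ± 4.37 to 358 ± 3.94 CPM. CDK12, a kinase gene for transcription elongation, went from 222 ± 9.76 to 292 ± 11.1 CPM, and SPHK1, for sphingosine kinase, from 4.66 ± 0.2996 to 9.71 ± 0.3602 CPM. SPHK1 reached 5 CPM in the inactivated group only, so it had to be higher. Ubiquitin and protease genes had a median of 0.38, and 16 of 18 passed as higher. SMURF2, a ubiquitin ligase gene of the TGF-beta pathway, was the highest of them (0.87 ± 0.045), while TRIM25 (0.011 ± 0.043) and DCAF7 (0.021 ± 0.045) overlapped between groups. Of 19 mitochondrial and metabolic genes, 17 passed as higher (median 0.53). PHB1, for prohibitin, went from 231 ± 5.34 to 372 ± 19.5 CPM, and PYCR1, for a proline synthesis enzyme, from 148 ± 7.296 to 221 ± 11.5 CPM. Lysosomal genes had a low median of 0.21, and 3 of 5 passed as higher. GRN, for progranulin, was higher by 0.38 ± 0.06, and NAGLU, a heparan sulfate degrading enzyme gene, was level (-0.035 ± 0.077).
Of 6 genes for secreted factors, 5 passed as higher and LGALS3BP as lower (median 0.45), and NOG, for the BMP antagonist noggin, went from 50.6 ± 3.94 to 72.6 ± 5.95 CPM. Known cancer genes had a median of 0.40, and 23 of 25 passed as higher. None of the 10 HOXB genes was a member, since no library reached 1 CPM for any of them. Besides keratins, some lists hold members at 5 CPM in the inactivated group only, which had to be higher. Without them the median was 0.47 for adaptor, actin and GTPase regulators (1 such member) and 0.37 for kinases and phosphatases (2). It was 0.53 for mitochondrial and metabolic genes (3) and 0.65 for DNA repair, replication and mitosis (1). For lysosomal genes it was 0.29 and for secreted factors 0.38 (1 each). The lists were drawn up with results of these data known. They are parts of the stretch, so each count is to be set beside the shares of the stretch itself. Of all 351 members 87.7% passed as higher and 4.84% as lower, against 29.6% and 29.7% of all genes tested.

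**Figure D5:**
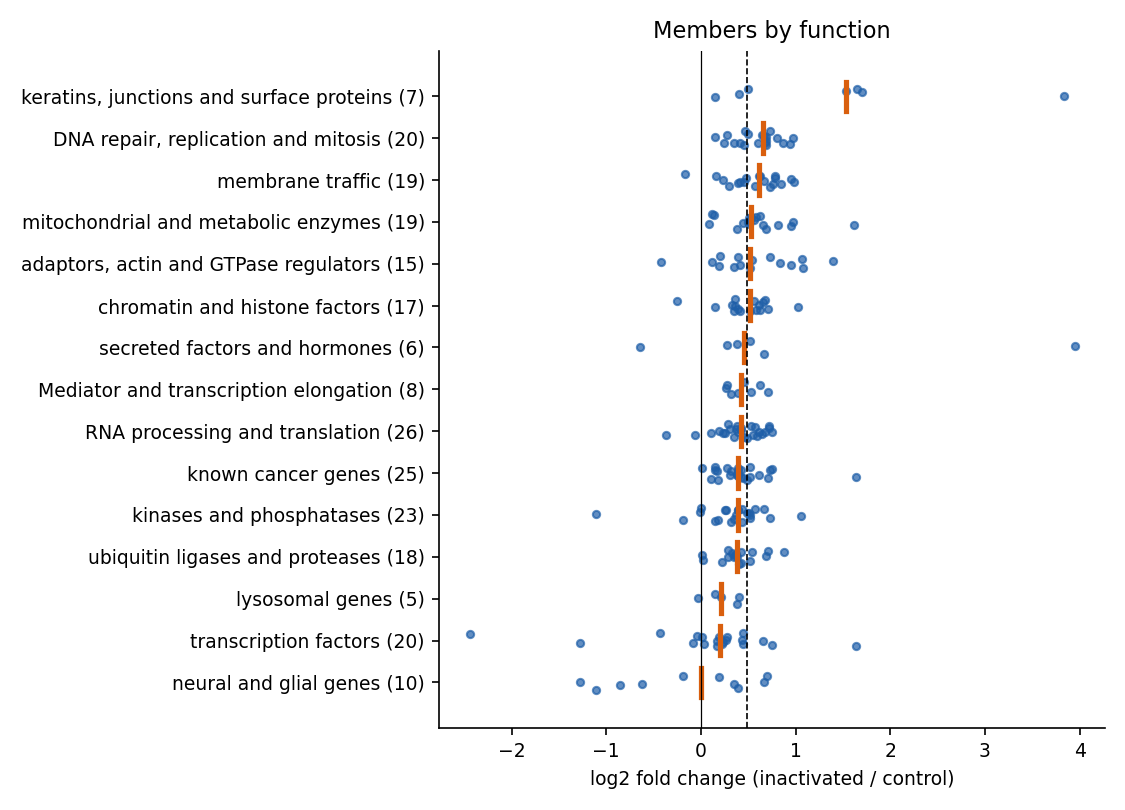
Log2 fold change (x axis) of the members in 15 lists (y axis, number of members in brackets); each point is a gene, placed with vertical scatter for legibility, and the orange bar is the list's median. The dashed line is the median of all 351 genes, 0.49; the lowest list median is -0.0031, for neural and glial genes. The median of 1.54 for keratins, junctions and surface proteins includes 3 members at 5 CPM in the inactivated group only and is 0.45 without them.

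Some members code for subunits or partners of proteins whose other genes lie elsewhere, and those partners were not used to choose the stretch. The 24 members in 10 such sets had a median log2 fold change of 0.48. Their 148 tested partner genes outside the stretch had a median of -0.023. Of these partners 39 rose and 52 fell (26.4% and 35.1%), against 29.6% and 29.7% of all genes tested, so their shares were near the background.

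In the Mediator set, MED1 (0.32), MED13 (0.28) and MED24 (0.53) were the members, and of 27 partners 7 rose, 6 fell and the median was 0.046. CCNC, the cyclin of the Mediator kinase module, rose from 141 ± 4.32 to 247 ± 2.901 CPM (log2 fold change 0.81 ± 0.041, edgeR adjusted p = 3.3e-12). MED13L, the paralogue of MED13, rose from 152 ± 7.39 to 204 ± 10.3 CPM (edgeR adjusted p = 2.8e-07). In Polycomb repressive complex 1, the chromobox genes CBX2 and CBX8 lie close together in the stretch. CBX2 stood at 92.7, 89.1 and 86.8 CPM in control and 127, 124 and 133 CPM in inactivated libraries, without overlap. CBX2 was higher by 0.51 and CBX8 by 0.66. Of 14 partners 2 rose and 7 fell, with a median of -0.17. CBX6, a chromobox gene on chromosome 22, fell from 298 ± 6.49 to 226 ± 1.23 CPM (edgeR adjusted p = 7e-08). PCGF5, for a RING finger subunit, fell from 35.8 ± 2.51 to 10.8 ± 0.484 CPM (-1.73 ± 0.067, edgeR adjusted p = 6.5e-14). RNF2, the catalytic subunit gene, rose from 117 ± 1.65 to 185 ± 4.88 CPM (edgeR adjusted p = 6.8e-11).

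In the SWI/SNF set, SMARCE1 was higher by 0.58 and SMARCD2 by 0.36, while 5 of 20 partners rose and 9 fell (median -0.030). SMARCA2, an ATPase subunit gene, fell from 91.6 ± 3.66 to 66.7 ± 1.19 CPM (edgeR adjusted p = 4.3e-08). In SAGA, ATXN7L3 (0.57) and the acetyltransferase gene KAT2A (0.41) were members, and 5 of 16 partners rose and 3 fell (median 0.074). Among SR proteins and the exon junction complex, SRSF1, SRSF2 and CASC3 (0.38) were members, and 2 of 18 partners rose and 7 fell (median -0.067). SRSF8 fell from 89.4 ± 0.456 to 62.3 ± 1.37 CPM (edgeR adjusted p = 3.2e-09).

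KPNB1, the importin beta gene, stood at 1072, 1096 and 1064 CPM in control and 1331, 1369 and 1393 CPM in inactivated libraries, all higher. With KPNA2, an importin alpha gene (0.65 ± 0.044), and NUP85, of the nuclear pore's Y complex (0.69 ± 0.045), it belongs to a set in which 9 of 22 partners rose and 8 fell (median 0.029). IPO5, an importin gene, fell from 2104 ± 96.8 to 1568 ± 23.6 CPM (edgeR adjusted p = 2e-07). NUP43, also of the Y complex, rose from 111 ± 1.58 to 181 ± 5.16 CPM (edgeR adjusted p = 2.7e-11). CLTC, the clathrin heavy chain gene, was among the most abundant members, at 1192, 1154 and 1049 CPM in control and 1643, 1784 and 1749.8 CPM in inactivated libraries. With the Golgi SNARE genes GOSR1 and GOSR2 (0.24) it had 14 partners, of which 2 rose and 6 fell (median -0.087).

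TUBG1, the main gamma-tubulin gene, stood at 73.97, 75.7 and 82.9 CPM in control and 119, 98.6 and 112 CPM in inactivated libraries. TUBG2, its paralogue, was at 3.39 CPM in control and 6.65 CPM in inactivated cells, and since the 2 genes are nearly identical their counts are uncertain. TUBG2 reached 5 CPM in the inactivated group only, so it had to be higher. Of 8 partners 4 rose and 1 fell (median 0.18), and TUBGCP4, for a ring complex protein, rose from 58.1 ± 2.84 to 93.1 ± 5.04 CPM (edgeR adjusted p = 9.2e-10). RAD51C (0.28) and RAD51D had 5 partners, of which 1 rose and 3 fell. XRCC2 rose from 35.2 ± 2.13 to 50.9 ± 4.102 CPM (edgeR adjusted p = 3.8e-07). Of the 4 other STAT genes tested outside the stretch, 2 rose and 2 fell. STAT6 fell from 22.8 ± 1.51 to 5.99 ± 0.268 CPM (-1.92 ± 0.076, edgeR adjusted p = 8.9e-14), while STAT2 rose from 23.4 ± 0.584 to 28.4 ± 1.43 CPM (edgeR adjusted p = 0.00037).

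Partner genes were also grouped by where they lie. For each one the median log2 fold change of the genes at 5 CPM or more within 5 Mb was taken, a measure chosen after the data were seen. Where that median was at least 0.2, 15 of 16 partners rose, among them CCNC, RNF2 and NUP43, whose neighbours had medians of 0.56, 0.27 and 0.41. Where it was -0.2 or less, 5 of 7 fell. The other partners with such a median numbered 123, of which 22 rose and 47 fell. Of all genes tested, 29.6% rose and 29.7% fell. The shares among all genes with such neighbours were not counted, so nothing about the partners is read from these counts. What these regions share with the stretch on chromosome 17 was not tested.

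Some genes of the stretch could not be read from this table. A second entry of the same gene, on an alternate or patch sequence of the genome, exists for 216 of the 1395 genes, and only 6 of these were members. Among protein-coding genes with a second entry, 82.98% of 141 were under 0.1 CPM in control, against 26.3% of 632 without one. They include genes that nearly every cell uses. EIF4A3, a core gene of the exon junction complex, was listed at 0.0881 CPM in control, and NSF, for the ATPase that recycles SNAREs, at 0.0201 CPM. ACTG1, for gamma-actin, was listed at 4.58 CPM and NF1 at 0.753 CPM. For KANSL1 the main entry was at 0.348 CPM and an alternate entry at 8.10 CPM. The sources used here do not say how multi-mapped reads were treated, and its part in these low values was not tested, so a low level of these genes in the table says little about the cells.
Members can share reads as well. Of the 351, 183 overlap another gene of the table, and the sources used here do not say whether counting used the strand. For AATK, PITPNC1 and SRSF1, the overlapping entries include noncoding or uncharacterised loci. The 167 members with neither an overlap nor a second entry had a median log2 fold change of 0.49.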

How the data were processed

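RNA of D283 cells was sequenced in 3 control and 3 ABL1 and ABL2 inactivated libraries, each on 2 lanes. Per the submitters' processing notes, the tools were DESeq2 1.36.0, STAR 2.7.2b, MultiQC 1.11, featureCounts 1.6.3 and FastQC 0.11.9, on build GRCh38.p14. The deposited table gives unnormalised whole-number counts for each gene in each lane. The deposited exon length of each gene, in bases, is of another unit and was used for levels per kilobase and for length quartiles. Of 49677 rows 26 held no counts and were left out. Lanes were summed per library (33505903 to 49034159 counts). A count of 0 allows up to 3 counts, or 0.0612 to 0.0895 CPM, for counting error only.

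Genes were filtered with filterByExpr (minimum count 10, minimum total 15), TMM-scaled (trimmed mean of M values) and tested in edgeR 4.0.16 (quasi-likelihood F test, two-sided, all 6 libraries, no covariate, Benjamini-Hochberg adjustment over all 14704 genes, threshold 0.05). Levels are TMM-normalised CPM, as values per library or mean ± SD of 3 libraries, and log2 fold changes are inactivated over control ± SE. The members, the lists and the partner sets were chosen with earlier results of these data known. Named genes are the 12 highest and 12 lowest members with an official symbol whose groups do not overlap, up to 4 most abundant and the extreme members of each list, all members of the partner sets, the genes nearest each threshold, and ABL1 and ABL2. Some genes that this rule names are not reported here. Partner genes outside the stretch were named after their values were seen. For each gene with several promoter entries in the RefSeq table, the first was used. The fit was tested on simulated data. Alternatives were other scalings, edgeR with DESeq2 size factors, the DESeq2 1.42.0 Wald test, limma-voom (limma 3.58.1), other filters, single lanes, leaving out each library and other bounds of the rule.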

Additional observations from a re-analysis of the deposited data

How the results depend on the processing

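The counts of members passing as higher or lower stayed within 1.5 times their values, and the median of the members stayed above 0, under each other scaling, test, filter, lane and bound of the rule. Leaving out 1 library at a time gave 297 to 313 members higher, 15 to 17 lower and medians of 0.47 to 0.51. The median moved to 0.51 with library totals only and with TMM factors from genes outside chromosome 17, and to 0.46 for members with 5 CPM in control. Partner genes that rose numbered 38 to 41 and those that fell 43 to 51 with 1 library left out. With 2 alternatives chosen after seeing the data, 146 members were higher and 9 lower among those with no overlapping gene and no second entry, which are fewer genes, and 22 partners rose where neighbours had a median below 0.2 in size. The medians of the function lists stayed within 0.2 of their values under the planned settings, with 31 of 225 past the spread of the inactivated libraries. For neural and glial genes the median ran from -0.046 to 0.068, so its sign turned. With another alternative chosen after seeing the data, only members at 5 CPM in control, the median of keratins, junctions and surface proteins was 0.45. Of the members named in the text, COG1, HEXIM2, P4HB and SRSF2 lost their call in 4, 2, 4 and 6 settings and RAD51D gained one in 2, with direction kept. DCAF7, HLF, NAGLU and TRIM25 lay so near 0 that the sign turned, without a call. With 1 library left out, DCAF7 was -0.0101 to 0.0738, HLF -0.0379 to 0.0554, NAGLU -0.0836 to 0.0297 and TRIM25 -0.0225 to 0.0297. DCAF7 was -0.00421 in lane 2, HLF -0.00310 with no low-count filter and -0.0324 in lane 1, NAGLU 0.0214 in lane 2 and TRIM25 -0.00498 in lane 1. Depth limits the members near 5 CPM most. With 3 libraries a group, and no record of separate cultures, the errors cover the spread between these libraries.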

Other observations

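The stretch also holds 132 tested genes below the 5 CPM threshold that were not left out by symbol. Their median log2 fold change was 0.63, with quartiles of 0.14 and 1.14, and 72 passed edgeR's threshold as higher and 7 as lower. Among the 4419 tested genes under 5 CPM outside the stretch the median was 0.097. Of all genes tested, 29.6% passed as higher and 29.7% as lower. These genes were chosen by the position of the stretch, so the values are a description.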
